A study of Mus musculus with 12 samples.

Results

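A list of 40 genes that cells transcribe for DNA replication and division was followed across the immune cells of MC38 tumors, to see which of these cells carried division transcripts. The genes were chosen by name for their known roles and not by a cut on their values, and all 40 were among the 31053 genes measured. It holds 18 genes of S phase, in which DNA is copied, and 20 genes of G2 and mitosis (G2/M), in which the copies are separated, with Hmgb2 and Stmn1 as 2 further genes that dividing cells raise and other cells also use. MC38 is a mouse colon carcinoma line, here grown under the skin of C57BL/6 mice. CD45+ cells, the leukocytes, were taken from the tumors on day 17 after implantation with magnetic beads, and their transcripts were counted by droplet-based scRNA-Seq as unique molecular identifiers (UMIs), each of which marks 1 captured transcript. The labels name 4 groups of 3 mice, which received daily subcutaneous vehicle for 7 days, the EZH2 inhibitor PF-06821497 (EZH2i) at 100 mg/kg for 7 days, vehicle for 16 days, or EZH2i at 100 mg/kg for 16 days. All mice bore the tumor, and no age or genotype beyond the strain is given in the labels. The deposited matrix marks each cell with a library number from 1 to 12, and no source used here ties these numbers to mice. EZH2i was therefore not compared with vehicle, and no p-value or SD is given. Classes of cells were compared within each of the 12 libraries instead.

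A cell that enters the cycle loads the MCM helicase onto origins of replication with the help of CDC6 and CDT1, copies its DNA with PCNA as the sliding clamp, and then divides under the control of cyclin B and CDK1. E2F factors drive the genes of S phase, while many genes of mitosis carry a CHR element, through which the DREAM complex keeps them silent in resting cells, and CCAAT boxes, which the activator NF-Y binds. In tumors, T cells divide after meeting antigen, dendritic cells arise from dividing precursors, some macrophages divide locally, and mature neutrophils have left the cycle.

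These elements can be read in the promoters of members that cycling CD8+ T cells transcribe strongly. The 3 S and 3 G2/M members with the highest level in such cells were Dut, Pcna, Mcm6, Top2a, Mki67 and Ube2c, and 150 bases upstream of the RefSeq start (GRCm38.p6) are given 5′ to 3′ for the 4 of them in which such a stretch is free of annotated exons. Capitals mark E2F letters (TTTCCCGC, TTTGGCGC, TTTCGCGC or TTTGCCGC), CHR letters (TTTGAA or TTTAAA) and CCAAT on either strand. Mcm6, a subunit of the helicase, is shown for E2F letters at 110 and 47 bases before its start (chr1:128359706-128359855, minus strand), the first of which overlap TTTCGCGC on the other strand. Top2a, the topoisomerase that untangles the copied DNA (chr11:99024190-99024339, minus strand), is shown for 4 CCAAT motifs and TTTGAA at 23 bases before the start. Mki67, which encodes the Ki-67 coat of mitotic chromosomes (chr7:135716380-135716529, minus strand), is shown for 2 copies of TTTGAA, at 116 and 98 bases. Ube2c, the ubiquitin-conjugating enzyme of the anaphase-promoting complex (chr2:164769748-164769897, plus strand), is shown for CCAAT at 155, 88 and 57 bases; its stretch ends 32 bases before the RefSeq start, where an exon of GENCODE M21 begins.
Mcm6: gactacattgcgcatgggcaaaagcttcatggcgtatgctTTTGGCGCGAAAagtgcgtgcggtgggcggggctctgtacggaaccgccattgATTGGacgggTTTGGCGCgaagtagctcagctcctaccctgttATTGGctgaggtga
Top2a: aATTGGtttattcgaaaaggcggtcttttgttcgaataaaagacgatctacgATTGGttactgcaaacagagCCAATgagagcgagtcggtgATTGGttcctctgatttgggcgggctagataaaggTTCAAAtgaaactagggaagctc
Mki67: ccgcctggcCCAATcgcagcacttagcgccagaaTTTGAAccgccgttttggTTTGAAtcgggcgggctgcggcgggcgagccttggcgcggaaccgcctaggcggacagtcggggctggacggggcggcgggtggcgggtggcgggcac
Ube2c: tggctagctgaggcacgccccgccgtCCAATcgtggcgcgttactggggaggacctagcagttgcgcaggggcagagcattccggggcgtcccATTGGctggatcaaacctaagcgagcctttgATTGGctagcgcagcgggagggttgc

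RefSeq entries of 300 bases, 250 before to 50 after the start, were at hand for 33 of the 40 members. E2F letters were in 8 of 15 S members (53.3%) and 1 of 17 G2/M members, against 2.61% of 27025 genes. TTTGAA was in 12 of 17 G2/M members (70.6%) and 1 of 15 S members, against 20.2% of all genes. TTTAAA was in 26.7% of the S members and 35.3% of the G2/M members, against 14.9%, and CCAAT in 60% and 88.2%, against 41.1%. A match is a description of these letters, not of binding.

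The limits on cell quality that the study states left 128912 of 140639 barcodes, fewer than the cells it states were analysed after quality control, with a median of 2291 to 15081 UMIs per cell over the 12 libraries (median of these 7668). A total of 2261 of 138353 barcode sequences (1.63%) were found in more than 1 library. Cells were put into classes by UMIs of lineage genes that are not on the list. Against these names, Csf1r, which no gate used, had a UMI in 82.7% of macrophages and 7.91% of CD8 T cells. Cd3e had a UMI in 71.6% of CD8 T cells and 0.468% of macrophages. It is a gene of the T cell gate, which set this split. Lyz2, a myeloid gene, had a UMI in 99.2% of macrophages but also in 51.1% of CD8 T cells and in 28.0% of B cells. Ptprc, which encodes CD45, was in 89.6% of CD8 T cells and 77.8% of macrophages. To compare cells of different depth, each was thinned at random to 1000 UMIs, which left out 6216 shallower cells, and was called cycle-positive with at least 2 UMIs of the 38 members other than Hmgb2 and Stmn1. The level of the list is given apart from this, as UMIs of all 40 members per 10000 UMIs of the class, unthinned. Medians over libraries use those with at least 50 thinned cells of a class, or at least 20 where this is said, and intervals are exact binomial 95% intervals that cover counting error only.

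CD8 T cells and type 1 dendritic cells, which take up dead cells and show their antigens to CD8 T cells, carried the division transcripts in the largest shares of cells among the classes of a single lineage with at least 200 cells, and macrophages carried them in the most cells. Of 3406 thinned CD8 T cells, 1301 were cycle-positive (38.2%, interval 36.6 to 39.9%), with a median of 33.9% over 11 libraries. Of 750 type 1 dendritic cells, 267 were cycle-positive (35.6%, 32.2 to 39.1%), with a median of 37.0% over 10 libraries of at least 20 cells. Of 82649 macrophages, 21852 were cycle-positive (26.4%, 26.1 to 26.7%), with a median of 22.9% over 12 libraries. As macrophages made up 65.2% of the cells kept, they held 75.1% of all cycle-positive cells, and CD8 T cells held 4.47%.

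The other classes stood lower. T cells with no single Cd4, CD8, Foxp3 or Trdc call reached a median of 17.9% over 11 libraries of at least 20 cells, conventional CD4 T cells 16.7% over 9 and NK cells 15.6% over 6. The first of these classes also holds T cells with conflicting calls, such as Cd4 with CD8. Macrophages that kept Ly6c2, a gene of the monocytes they arise from, were at 13.2% over 12 libraries. Mature dendritic cells stood at 7.76% over 12 libraries of at least 20 cells, Cd209a-positive dendritic cells at 10.0% over 7, and Ly6c2-positive monocytes at 3.70% over 12. Neutrophils, the class set as background, were at 1.48% over 9 libraries (0 to 7.14%), a median that was 2.58% without library 4 and 2.62% without library 9, 10, 11 or 12. The medians of CD4 T cells and NK cells, as those of Cd209a-positive and mature dendritic cells, lie well inside the range of the other class of each pair.

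**Figure D1:**
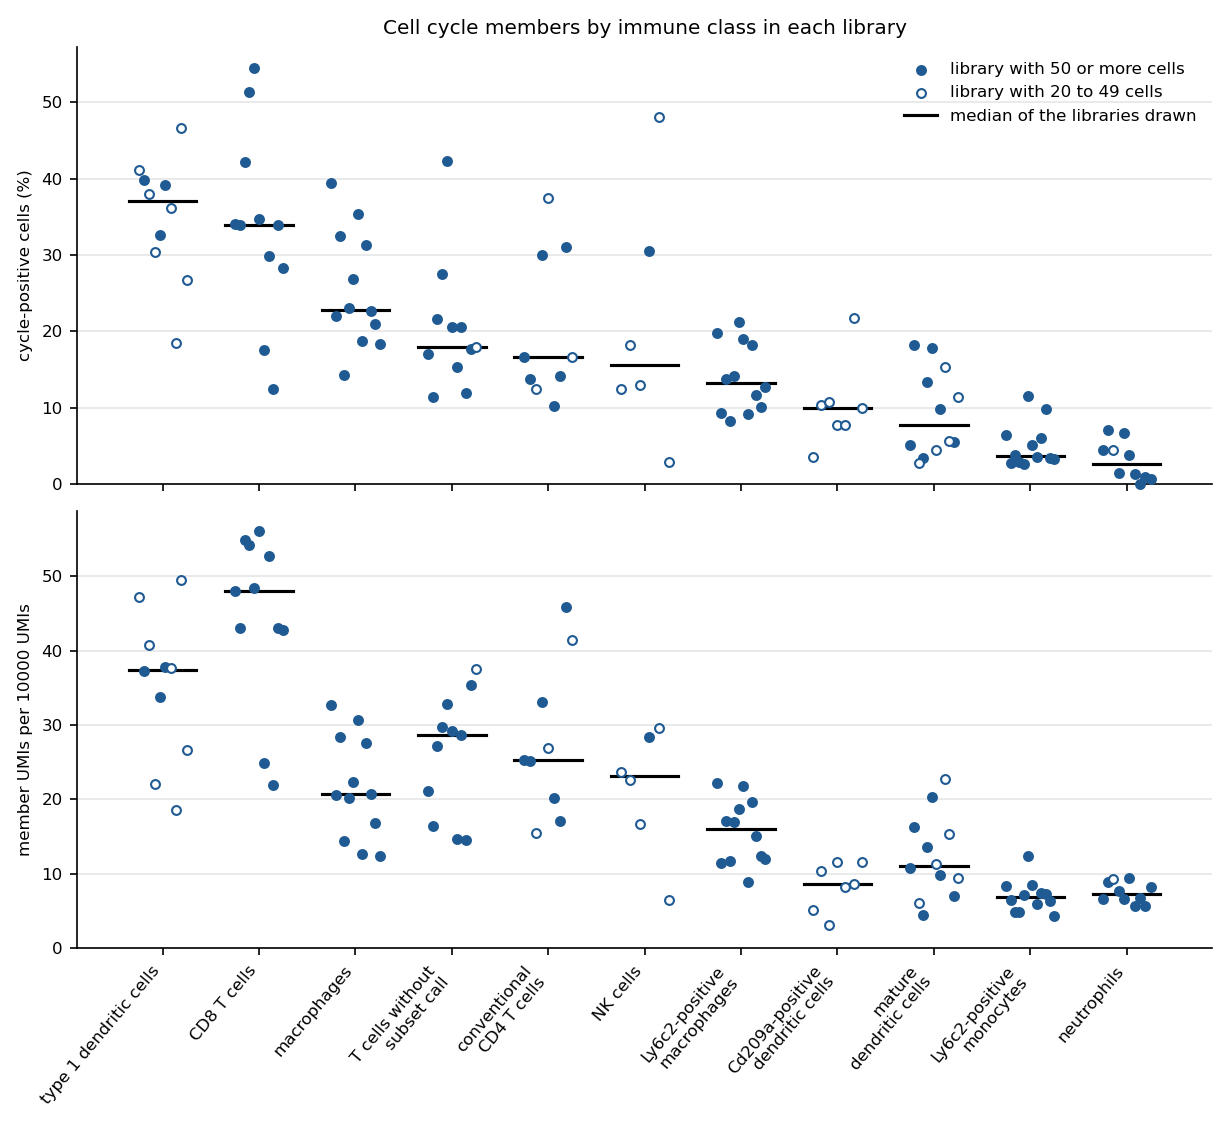
Each point is 1 library, with the share of cycle-positive cells (upper axis, percent) or the member UMIs per 10000 UMIs (lower axis) for each class, filled for 50 or more cells and open for 20 to 49, and the bar is the median of the libraries drawn. CD8 T cells and type 1 dendritic cells lie highest, macrophages between 14.3 and 39.4%, and monocytes and neutrophils near the floor.

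In CD8 T cells, the share differed between libraries by more than the counting intervals of single libraries. It was 34.1% in library 1, 33.9% in library 2, 42.1% in library 3, 51.3% in library 5, 54.5% in library 6 and 34.7% in library 7. It was 17.5% in library 8, 29.9% in library 9, 12.5% in library 10, 33.9% in library 11 and 28.3% in library 12, while library 4 had 7 such cells, 5 of them positive. Libraries 5 and 6, with the highest shares, had 575 and 602 of the cells, and library 8, at 17.5% of 462 cells, lay below both intervals (47.1 and 50.4% at their lower ends). The level of the list was lowest in the same 2 libraries as the share, at 22.0 per 10000 in library 10 and 24.9 in library 8, and reached 56.1 in library 7 (median 47.9).

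The share of macrophages called positive also differed between libraries. It was 39.4, 22.0, 32.5, 14.3, 23.1, 26.9, 35.4, 18.8, 31.4, 22.6, 21.0 and 18.3% in libraries 1 to 12. Library 1 was highest and library 4 lowest, and the intervals of these 2 libraries (from 38.2% in library 1, up to 15.3% in library 4) do not meet. Their level was 12.5 per 10000 in library 12, 12.7 in library 8 and 14.5 in library 4, and 32.7 in library 1. Libraries 8 and 12 were also the deepest for macrophages, with medians of 21945 and 18465 UMIs against 2323 to 14277 in the other 10, and the part of depth in this was not tested.

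**Figure D2:**
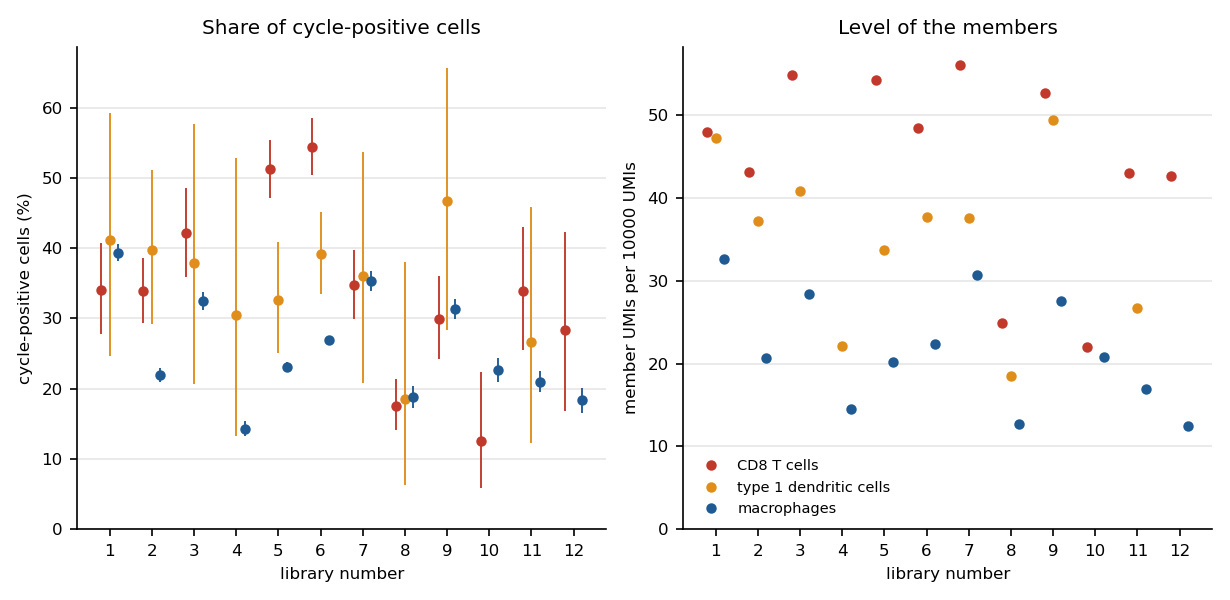
The left axis gives the share of cycle-positive cells (percent, with exact 95% intervals for counting error) and the right axis the member UMIs per 10000 UMIs, for CD8 T cells, type 1 dendritic cells and macrophages in libraries 1 to 12, where a class has at least 20 cells. The share of CD8 T cells is above that of macrophages in 6 of 11 libraries, while their level is above it in 11 of 11.

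Whether CD8 T cells or macrophages stood higher depended on the measure. The share was higher in CD8 T cells in 6 of 11 libraries, with a median difference of 9.68 percentage points (-10.1 to 28.2), and it was lower in libraries 1, 7, 8, 9 and 10. This order turned without thinning (-16.6 points, 3 of 11 libraries), without Dut, Pcna and the Mcm genes (-0.32 points, 5 of 11) and with a stricter choice of cells (-6.97 points, 3 of 7). It was 4.53 points without library 2, 5, 6, 11 or 12 and 4.68 without library 3, each in 5 of 10 libraries. The level was higher in CD8 T cells in 11 of 11 libraries, by a median of 25.3 per 10000. This level also counts Hmgb2 and Stmn1, which the share leaves out. Without these genes, pooled CD8 T cells held 13.3 S and 15.0 G2/M UMIs per 10000, and macrophages 6.82 and 9.02. Over conventional CD4 T cells, CD8 T cells had the higher share in 8 of 9 libraries that held 20 or more of each, by a median of 17.4 points (-1.16 to 29.6). Over NK cells it was higher in 6 of 6 such libraries, by a median of 21.2 points. Against type 1 dendritic cells the share was higher in 4 of 9 such libraries and the level in 9 of 9.

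Type 1 dendritic cells were above macrophages in 9 of 10 libraries that held 20 or more of each, by a median of 7.62 points (-0.26 to 17.8). They were above mature dendritic cells, which have taken up antigen and turned on Ccr7, in 10 of 10 libraries, by a median of 24.3 points, and above Cd209a-positive dendritic cells in 7 of 7, by 24.9 points. Their shares were 41.2% in library 1, 39.8% in library 2, 37.9% in library 3, 30.4% in library 4, 32.6% in library 5, 39.2% in library 6, 36.1% in library 7, 18.5% in library 8, 46.7% in library 9 and 26.7% in library 11. Library 8 was lowest here, on 27 cells, 5 of them positive. Of plasmacytoid dendritic cells, which make type I interferon, 7 of 161 were positive (4.35%, 1.77 to 8.75%).

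Among the tumor cells of the monocyte lineage, the share was lowest in Ly6c2-positive monocytes, higher in Ly6c2-positive macrophages and highest in macrophages. Macrophages were above Ly6c2-positive macrophages in 12 of 12 libraries, by a median of 10.9 points (5.66 to 19.6). Ly6c2-positive macrophages were above Ly6c2-positive monocytes in 12 of 12, by 9.51 points (1.80 to 14.0). Monocytes were above neutrophils in 6 of 9, by 2.03 points (-4.32 to 9.86), and their level was above that of neutrophils in 5 of 9. This order turned to -9.23 points with all 40 members counted, Hmgb2 among them at 259 CPM in monocytes and 619 in neutrophils, to -0.013 without Dut, Pcna and the Mcm genes, and to -0.43 with the stricter choice of cells (2 libraries). It was wider without thinning, at 24.6 points in 10 of 10 libraries, where the median cell held 4704 UMIs in monocytes and 1330 in neutrophils, and it was 2.98 points in 8 of 9 libraries at a cut of 1 UMI. Without Hmgb2 and Stmn1, pooled monocytes held 2.19 S and 1.44 G2/M UMIs per 10000 and neutrophils 0.92 and 0.91.

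Small classes gave wide intervals. Of 43 Foxp3-positive T cells, which restrain other T cells, 10 were positive (23.3%, 11.8 to 38.6%), and of 107 gamma delta T cells 23 were (21.5%, 14.1 to 30.5%). Of 239 B cells, 21 were positive (8.79%, 5.52 to 13.1%). None of 10 plasma cells was positive, for which the interval reaches 30.8%. Of 32 basophils and mast cells 12 were positive (37.5%, 21.1 to 56.3%).

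Of the genes of origin licensing, the MCM subunits were all highest in CD8 T cells among the classes followed gene by gene. As CPM of the pooled cells of a class (UMIs per 1000000 UMIs), Mcm2 stood at 50.2 in CD8 T cells and 29.2 in macrophages, Mcm3 at 78.1 and 60.5, and Mcm4 at 63.6 and 28.8. Mcm5 stood at 69.9 and 39.2, Mcm6 at 115 and 52.2, and Mcm7 at 74.4 and 39.0. Neutrophils held 2.24 to 5.22 CPM of these 6 genes. Cdc6, which loads the helicase, was low throughout, at 12.2 CPM in CD8 T cells and 5.42 in macrophages. Its partner Cdt1 stood at 36.1 in CD8 T cells, 19.5 in macrophages and 52.1 in B cells. Gins2, a part of the active helicase, stood at 22.3 CPM in CD8 T cells, 24.6 in type 1 dendritic cells and 23.6 in macrophages, against 12.5 in CD4 T cells and 6.91 in monocytes. Pcna, the sliding clamp, stood at 154 in CD8 T cells (47.3 to 246 over 11 libraries, median 135) and 119 in macrophages (90.1 to 158 over 12, median 114), so that the libraries of the 2 classes overlap.

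Among the genes that supply nucleotides, Dut, which removes dUTP, had the largest fold of all members between CD8 T cells and macrophages. Dut stood at 284 CPM in CD8 T cells (85.2 to 409 over libraries, median 295), 113 in type 1 dendritic cells, 59.9 in macrophages (33.9 to 98.0, median 55.0) and 3.85 in neutrophils, and it was 4.74-fold higher in CD8 T cells than in macrophages, in 11 of 11 libraries. Tyms, thymidylate synthase, stood at 81.2 CPM in CD8 T cells and 41.0 in macrophages. The large subunit of ribonucleotide reductase, Rrm1, stood at 76.3 and 59.8, and the small subunit Rrm2 at 63.6 and 25.4, with 64.3 in type 1 dendritic cells. Tk1, thymidine kinase, stood at 35.6 in CD8 T cells and 29.8 in macrophages. Of the chromatin genes, Uhrf1, which carries DNA methylation through replication, stood at 38.5 CPM in CD8 T cells, 28.9 in type 1 dendritic cells and 22.3 in macrophages, and the helicase gene Hells at 56.2, 26.4 and 20.4.

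Of the cyclins and CDK1, which drive entry into mitosis, Cdk1 and Ccnb1 were higher in type 1 dendritic cells than in CD8 T cells in the pooled cells, and Ccna2 and Ccne2 lower. Cdk1 stood at 86.8 CPM in type 1 dendritic cells (31.6 to 191 over 10 libraries, median 90.2), 66.9 in CD8 T cells (23.7 to 94.5, median 70.7) and 53.0 in macrophages (22.2 to 87.1, median 48.6). Ccnb1 stood at 28.9, 26.3 and 22.1 in these 3 classes and Ccnb2 at 52.4, 53.6 and 36.6. Ccna2, cyclin A2, stood at 39.9, 48.6 and 30.9, and Ccne2, a cyclin of S phase entry, at 4.10, 14.8 and 6.45. Of the genes that work with the anaphase-promoting complex, Ube2c stood at 161, 146 and 81.4 CPM and its activator Cdc20 at 26.4, 29.5 and 21.4.

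Of the mitotic kinases and the spindle checkpoint, Aurka, a kinase of the centrosome, was lower in CD8 T cells than in macrophages in 10 of 11 libraries, at 8.77 and 11.9 CPM. Aurkb, the kinase of the chromosomal passenger complex, stood at 22.8 CPM in CD8 T cells, 29.6 in type 1 dendritic cells and 18.7 in macrophages, and Birc5, survivin, of the same complex, at 128, 127 and 90.0. The checkpoint genes Bub1 and Bub1b stood at 15.6 and 22.9 CPM in CD8 T cells, 20.8 and 22.8 in type 1 dendritic cells, and 15.3 and 24.9 in macrophages. Tpx2, which activates Aurora A on the spindle, stood at 48.8, 45.8 and 37.1.

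The centromere and spindle genes were mostly highest in CD8 T cells. Cenpa, the histone H3 variant of centromeres, stood at 172 CPM in CD8 T cells, 81.2 in type 1 dendritic cells and 87.9 in macrophages, Cenpe at 56.2, 65.6 and 40.8, and Cenpf at 82.7, 47.4 and 38.0. The motor genes Kif11 and Kif23 stood at 50.9 and 29.3 CPM in CD8 T cells, 41.3 and 30.6 in type 1 dendritic cells, and 22.1 and 18.4 in macrophages. Nusap1, which bundles spindle microtubules, stood at 68.8, 54.0 and 30.3.

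Mki67 and Top2a, the usual single markers of cycling cells, followed the list. Mki67 stood at 163 CPM in CD8 T cells (77.9 to 289 over 11 libraries, median 171), 123 in type 1 dendritic cells (47.4 to 207 over 10, median 134), 94.0 in macrophages (25.9 to 158 over 12, median 87.8) and 4.97 in neutrophils. Top2a stood at 255 CPM in CD8 T cells (101 to 369, median 288), 196 in type 1 dendritic cells (68.5 to 314, median 233), 127 in macrophages (33.6 to 216, median 112) and 6.84 in neutrophils. The libraries of the 3 dividing classes overlap in both genes, and each of their medians lies far above the range of neutrophils. After thinning, 17.4% of CD8 T cells, 16.8% of type 1 dendritic cells, 11.6% of macrophages and 1.14% of neutrophils had a UMI of either gene.

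Hmgb2, which bends DNA and is also used by resting blood cells, did not follow the rest of the list. It stood at 1217 CPM in CD8 T cells (573 to 1454 over libraries), 960 in type 1 dendritic cells, 450 in macrophages (288 to 570) and 619 in neutrophils (378 to 720), so that neutrophils lay above macrophages in the pooled cells. Stmn1, which takes microtubules apart, stood at 406 CPM in CD8 T cells, 276 in type 1 dendritic cells, 212 in macrophages and 12.1 in neutrophils.

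**Figure D3:**
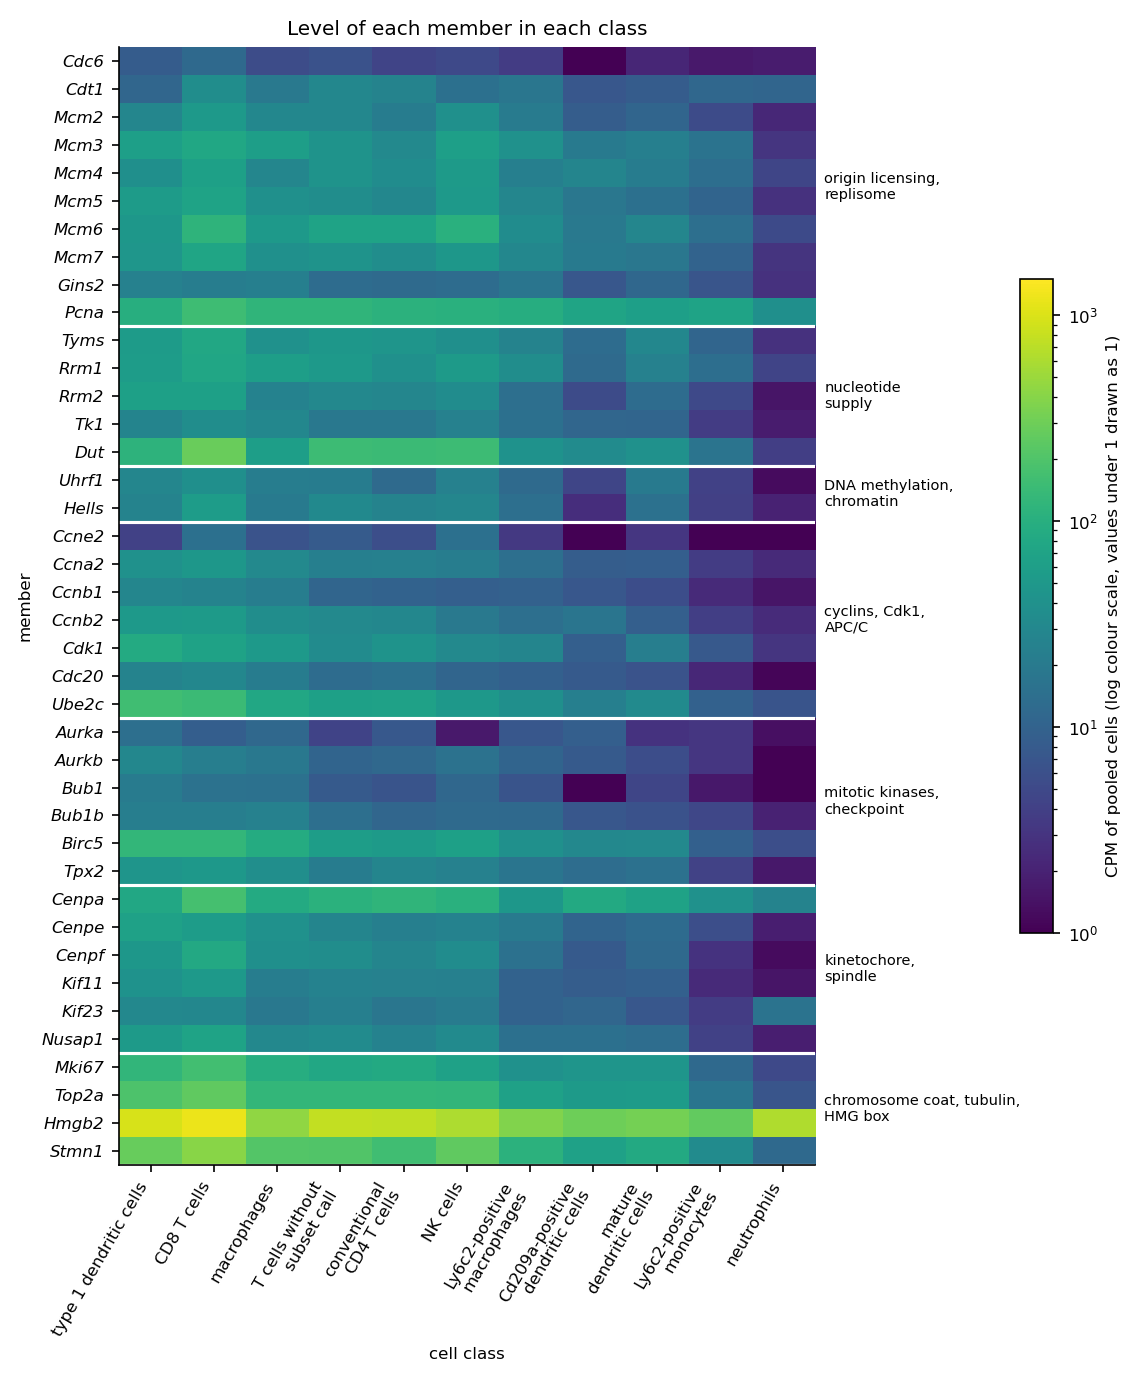
The colour gives the CPM of each of the 40 members (rows, by role) in the pooled cells of each class (columns) on a log scale, with values under 1 drawn as 1. Hmgb2 stands out in neutrophils, and Pcna, Cenpa, Cdt1 and Kif23 are the other members above 10 CPM there, with Stmn1 at 12.1.

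By gene, in the cells of a class pooled over libraries, 27 of the 40 members were highest in CD8 T cells, 10 in type 1 dendritic cells (Rrm2, Gins2, Cdk1, Ccnb1, Aurka, Aurkb, Bub1, Cenpe, Kif23 and Ube2c), and 1 each in B cells (Cdt1), NK cells (Ccne2) and macrophages (Bub1b). The same count over all genes was not made, so this one describes the members only. Some places are near ties, such as Ccne2 at 15.0 CPM in NK cells and 14.8 in CD8 T cells. Rrm2 stood at 64.3 in type 1 dendritic cells and 63.6 in CD8 T cells. The median of Bub1b over libraries was 24.8 CPM in both macrophages and CD8 T cells and 26.1 in type 1 dendritic cells, so that its pooled order did not hold over libraries. A count of members at least 2-fold apart between a pair of classes was taken over those with a mean of both classes of at least 10 CPM. A member under 10 CPM in the lower class passed this floor only through the class where it is high and so had to differ, and counts are therefore also given over the members at 10 CPM or more in the lower class alone. CD8 T cells against macrophages had 11 of 39 tested members at least 2-fold higher and 0 lower, where 13.8% of 7730 genes were higher and 16.3% lower; the median log2 fold was 0.79 for the members and 0.09 for all genes. Of the 38 at 10 CPM or more in macrophages, 10 were higher, against 8.08% of all such genes. The 11 were Dut and, in order, Hells at 2.75-fold, Hmgb2 at 2.71, Rrm2 at 2.50, Kif11 at 2.30, Ccne2 at 2.29, Nusap1 at 2.27, Mcm4 and Mcm6 at 2.21, Cenpf at 2.17 and Top2a at 2.01, of which Ccne2 was under 10 CPM in macrophages (6.45). Scaled to UMIs outside the mitochondrial and ribosomal protein genes, 21 members were higher, and the background split became 19.6% higher and 14.1% lower.

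CD8 T cells against conventional CD4 T cells had 20 of 38 tested members at least 2-fold higher and 0 lower, against 1.88% of all genes higher and 3.78% lower (median log2 fold 1.01 against -0.04). Of the 36 at 10 CPM or more in CD4 T cells, 18 were higher, against 1.14%. Uhrf1 led at 3.08-fold, higher in 9 of 9 libraries, followed by Cenpf at 2.94, Nusap1 at 2.69 and Ccnb1 at 2.63. Cdt1 at 1.38-fold, Pcna at 1.41 and Cenpa at 1.45 were the tested members closest between the 2 classes. NK cells against CD8 T cells had 16 of 38 tested members at least 2-fold lower and 0 higher, against 4.55% of all genes lower and 4.89% higher, and this held for 15 of the 37 at 10 CPM or more in NK cells, against 2.53%. The G2/M genes Ube2c at 0.34-fold, Ccnb1 at 0.35 and Ccnb2 at 0.36 were lowest, while the S genes Ccne2 at 1.02-fold and Mcm6 at 0.90 were closest to CD8 T cells. Foxp3-positive T cells against conventional CD4 T cells had 10 of 37 tested members at least 2-fold higher and 0 lower, against 4.76% of all genes higher and 4.7% lower (9 of the 36 at 10 CPM or more in CD4 T cells, against 2.81%), but these rest on 44 cells and as few as 7 UMIs of a gene (Bub1).

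Type 1 dendritic cells against Cd209a-positive dendritic cells had 33 of 37 tested members at least 2-fold higher and 0 lower, against 7.78% of all genes higher and 10.7% lower. Of the 22 at 10 CPM or more in Cd209a-positive dendritic cells, 19 were higher, against 4.78%. Rrm2 was 12.3-fold higher (361 against 8 UMIs), and Cdk1 9.45-fold. Cenpa at 0.95-fold, Pcna at 1.37, Mcm4 at 1.40 and Aurka at 1.55 were the 4 under 2-fold. Against mature dendritic cells, 29 of 36 were higher and 0 lower, against 9.61% of all genes higher and 12.9% lower (20 of the 27 at 10 CPM or more in mature dendritic cells, against 6.71%), with Ccnb2 at 5.65-fold, Aurkb at 5.21 and Cenpe at 5.15. Against macrophages, type 1 dendritic cells had 2 of 38 higher, Rrm2 at 2.53-fold and Hmgb2 at 2.13, and 0 lower, against 7.19% of all genes higher and 15.2% lower. The median log2 fold was 0.38 for the members and -0.10 for all genes, and at 1.5-fold 11 of 38 members were higher, against 13.1% of all genes. All 38 were at 10 CPM or more in macrophages, and of all such genes 4.44% were at least 2-fold higher.

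Macrophages against neutrophils had 32 of 35 tested members at least 2-fold higher and 0 lower, where 40.5% of all genes were higher and 14.6% lower, but 29 of these members were under 10 CPM in neutrophils and had to differ. Of the other 6, 3 were higher (Pcna, Cenpa and Stmn1), against 29.5% of all genes at 10 CPM or more in neutrophils. Cenpf was 30.6-fold higher (21951 against 10 UMIs) and Tpx2 23.0-fold. Cdt1 at 1.80-fold, Kif23 at 1.12 and Hmgb2 at 0.73 were the 3 members under 2-fold. Monocytes against macrophages had 33 of 36 tested members at least 2-fold lower and 0 higher, against 6.48% of all genes lower and 3.96% higher. Of the 15 at 10 CPM or more in monocytes, 12 were lower, against 3.72%. Cenpf was lowest at 0.08-fold and Birc5 stood at 0.10, while Cdt1 at 0.59, Pcna at 0.58 and Hmgb2 at 0.58 were the 3 less than 2-fold lower. Macrophages against Ly6c2-positive macrophages had 15 of 37 higher and 0 lower, against 1.67% of all genes higher and 1.02% lower (11 of the 32 at 10 CPM or more in Ly6c2-positive macrophages, against 1.07%), with Ccnb2 at 2.54-fold and Cenpf at 2.49.

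The balance of mitotic and S phase transcripts differed between the pooled cells of the classes. The ratio of summed G2/M to summed S UMIs was 1.63 in type 1 dendritic cells, 1.32 in macrophages, 1.13 in CD8 T cells, 1.08 in conventional CD4 T cells, 0.81 in NK cells, 0.90 in Ly6c2-positive macrophages and 0.66 in monocytes. Over libraries the median was 1.17 in CD8 T cells (0.75 to 1.67 over 11), 1.28 in macrophages (0.77 to 1.63 over 12) and 0.61 in monocytes (0.33 to 0.94 over 12), so that CD8 T cells and macrophages overlap. In type 1 dendritic cells the median was 1.58 (1.49 to 1.66 over 3 libraries of at least 50 cells), inside the range of CD8 T cells. In conventional CD4 T cells it was 1.17 (0.63 to 1.70 over 6), and NK cells had 1 such library. Counting Hmgb2 and Stmn1 as G2/M genes moves the medians of CD8 T cells and macrophages to 2.32 and 2.33. In neutrophils the sums were 0.92 S and 0.91 G2/M UMIs per 10000, against 13.3 and 15.0 in CD8 T cells.

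S and G2/M transcripts met in the same cells. Among thinned CD8 T cells with at least 2 S UMIs, 59.4% of 908 also had a G2/M UMI (56.1 to 62.6%), against 21.9% of 1678 with no S UMI. The same shares were 54.2 and 22.1% in macrophages, 58.5 and 27.0% in type 1 dendritic cells, 50 and 15.7% in NK cells and 34.1 and 8.42% in monocytes. In neutrophils 3 of 17 cells with at least 2 S UMIs had a G2/M UMI (17.6%, 3.80 to 43.4%). The 7.10% of cells with no S UMI lies inside this interval, so 17 cells are too few to show a difference. Of cycle-positive CD8 T cells, 28.4% had S UMIs alone, 10.1% G2/M UMIs alone and 61.6% both. Of cycle-positive type 1 dendritic cells, these were 20.2, 25.5 and 54.3%.

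In the classes with few cycle-positive cells, fewer members reached a level that can be read. A level of at least 10 CPM was reached by 39 members in CD8 T cells, 38 in macrophages, 38 in type 1 dendritic cells, 19 in B cells, 15 in monocytes and 6 in neutrophils. Of all 31053 genes, 23.9, 23.6, 21.9, 22.7, 21.8 and 18.5% reached it in these 6 classes. In neutrophils the 6 were Hmgb2, Pcna at 37.8 CPM, Cenpa at 26.5, Kif23 at 16.4 (132 UMIs), Stmn1 and Cdt1 at 10.8. Kif23 thereby stood in neutrophils close to its 18.4 CPM in macrophages, while Kif11 was at 1.49 CPM in neutrophils and 22.1 in macrophages, and Nusap1 at 1.86 and 30.3. In B cells Cenpa reached 126 CPM and Cdt1 52.1, with Mki67 at 7.19 and Top2a at 21.6. Monocytes had Pcna at 69.1 and Cenpa at 39.9, with Mki67 at 12.1.

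Cell cycle genes outside the list were compared between cycle-positive and cycle-negative cells of a class. The 93 genes of this second list played no part in the call, and all were found in the data. In CD8 T cells 71 of the 83 past the floor of 10 CPM were at least 2-fold higher in cycle-positive cells and none was at least 2-fold lower, against 4.5% of 7398 genes higher and 1.08% lower. Of these 83, 45 were under 10 CPM in cycle-negative cells and so had to be higher, and of the 38 at 10 CPM or more there, 26 were higher, against 2.36% of all such genes. Esco2, which joins sister chromatids, was 52.9-fold higher (46.1 against 0.872 CPM), Hmmr 41.3-fold, the kinetochore genes Nuf2 33.2-fold and Spc25 27.5-fold, and E2f8 23.6-fold. The smallest values were those of Ccnd2 at 0.62-fold, higher in 0 of 9 libraries, Ccnd1 at 0.75 and Pttg1 at 0.80. Ccnd1 and Ccnd2 are D-type cyclins, which act before S phase.

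In macrophages 70 of 81 were at least 2-fold higher and none lower, against 3.75% of all genes higher and 0.299% lower. Of the 32 at 10 CPM or more in cycle-negative macrophages, 21 were higher, against 1.64%. Esco2 was 27.5-fold higher, Prc1, of the spindle midzone, 21.0-fold, Hmmr 20.8-fold, Knl1, of the kinetochore, 19.5-fold and Ncapg, of condensin, 19.1-fold. Pttg1 at 1.00, Ccnd2 at 1.01 and Cdk6 at 1.06 were lowest. Type 1 dendritic cells had 72 of 81 higher and 0 lower, against 5.61% of all genes higher and 1.2% lower. In CD4 T cells 68 of 81 were higher and 1 lower, Ccnd1 at 0.43-fold (5.63 and 4.09% of all genes), and in NK cells 64 of 74 were higher and 0 lower (8.77 and 6.88%). In Ly6c2-positive macrophages 68 of 78 were higher (3.66%, with 0.613% of all genes and 0 of the list lower), and in monocytes 51 of 64 (4.21%, with 0.836% and 0 lower). Of the genes at 10 CPM or more in the cycle-negative cells alone, 30 of 39 were higher in type 1 dendritic cells (2.70% of all such genes), 25 of 38 in CD4 T cells (2.95%), 24 of 33 in NK cells (4.32%), 22 of 32 in Ly6c2-positive macrophages (1.63%) and 16 of 29 in monocytes (1.92%). Of the 2 members left out of the call, Stmn1 was 11.6-fold higher in cycle-positive CD8 T cells and 6.90-fold in macrophages, and Hmgb2 4.07-fold and 4.50-fold. Cycle-positive cells were also deeper before thinning, with a median of 4064 against 2919 UMIs in CD8 T cells and 6499 against 4801 in macrophages, and the part of depth in these folds was not tested.

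**Figure D4:**
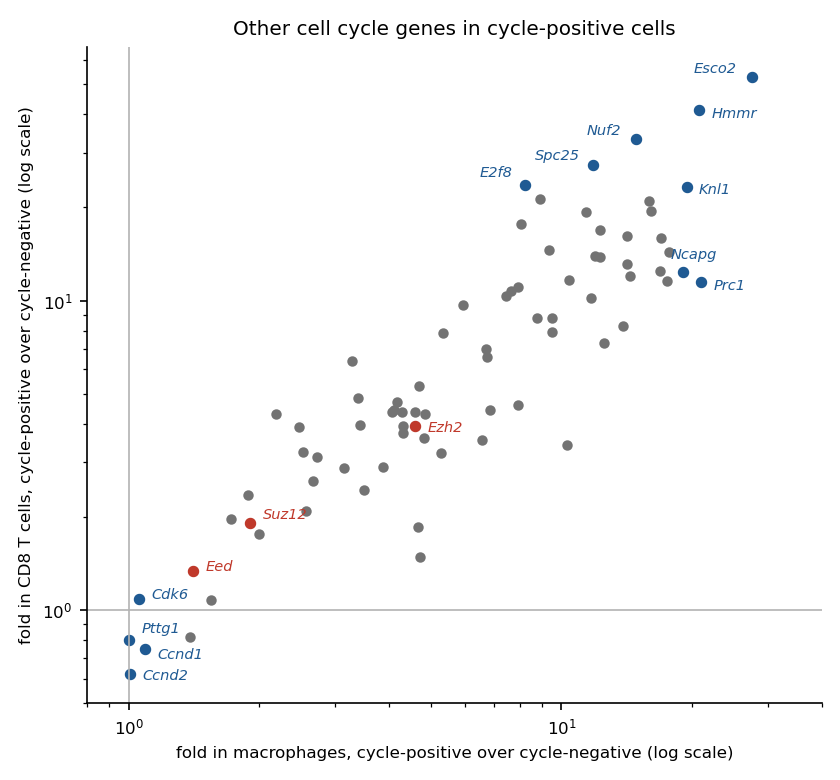
Each point is 1 of the other cell cycle genes past the floor in both classes, with its fold of CPM between cycle-positive and cycle-negative macrophages (x, log scale) and CD8 T cells (y, log scale). Most lie above 2-fold in both, while Pttg1, Ccnd1, Ccnd2 and Cdk6 lie between 0.62 and 1.09 in both and Ezh2 lies at 4.59 and 3.94.

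Ezh2, which encodes the methyltransferase that the inhibitor blocks and is no member of the list, went with the cycle in these classes. It stood at 152 CPM in cycle-positive and 38.5 CPM in cycle-negative CD8 T cells, 3.94-fold and higher in 9 of 9 libraries (124 to 229 CPM against 23.8 to 49.4, with no overlap). In macrophages it stood at 98.9 against 21.5 CPM, 4.59-fold and higher in 12 of 12 libraries (51.1 to 111 against 16.1 to 27.6). In type 1 dendritic cells it was 3.53-fold higher in 3 of 3 libraries and in CD4 T cells 4.34-fold in 2 of 2. Ly6c2-positive macrophages had it 6.40-fold higher in 10 of 10. In NK cells it was 5.19-fold higher, on 59 against 25 UMIs and with 1 library to compare. Neutrophils held 10.7 against 7.79 CPM, on 2 UMIs in the cycle-positive cells and with no library to compare. After thinning, 12.1% of cycle-positive and 4.18% of cycle-negative CD8 T cells had an Ezh2 UMI, and 8.73% and 2.15% of macrophages. Suz12 and Eed, its partners in the polycomb complex, differed less, at 1.90-fold and 1.34-fold in CD8 T cells and 1.91-fold and 1.41-fold in macrophages.

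Within CD8 T cells, the share was set against markers of state. Cells with Havcr2, which encodes the exhaustion receptor TIM-3, and without Tcf7 were positive in 48.6% of 665 cells (44.7 to 52.4%). Cells with Tcf7, which encodes TCF-1 of stem-like T cells, and without Havcr2 were positive in 27.1% of 362 (22.6 to 32.0%), and those with neither in 37.0% of 2341. These pooled shares weigh the libraries unequally: within libraries, cells with Tcf7 were above those with neither in 2 of 7, with a median difference of -0.24 points (-7.90 to 5.27). Cells with Havcr2 stood above those with Tcf7 in 4 of 4 libraries that held 20 or more of each, by a median of 14.0 points (8.40 to 30.7). The median UMI counts were 5327 with Havcr2, 3584 with Tcf7 and 2786 with neither, and the part of depth in this was not tested. With both genes read after thinning, the pooled shares were 39.7% of 199 cells with Havcr2, 18.6% of 140 with Tcf7 and 39.0% with neither. Only 1 library then held 20 or more cells with Havcr2 and with Tcf7, and those with Havcr2 were 10 points higher in it. Cells with Havcr2 were above those with neither in 7 of 8 libraries with all UMIs, the difference running from -4.55 to 25.3 points, and in 1 of 5 after thinning, with a median of -5.19 points. Cells with Tcf7 were above those with neither in 0 of 2 libraries after thinning, with a median of -16.8 points. Cells with Gzmk, of the pre-exhausted state, and without Havcr2 were positive in 30.0% of 889, of which 300 were from library 8, with a library median of 33.0%. They were above cells with neither Tcf7 nor Havcr2 in 5 of 10 libraries, with a median difference of -0.37 points (-11.4 to 15.4). These sets overlap, as cells with Gzmk but neither Tcf7 nor Havcr2 count in both, which makes the difference smaller by construction.

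In macrophages, read after thinning, the share was lower in cells with Arg1, which encodes arginase 1, than in cells without. It was 20.5% of 12930 cells with at least 2 Arg1 UMIs and 28.0% of 55973 with none, and it was lower with Arg1 in 12 of 12 libraries, by a median of 7.12 points (1.86 to 18.3). For H2-Ab1, of MHC class II, the share was 28.7% at 0 UMIs, 29.1% at 1 to 3, 26.4% at 4 to 7 and 18.5% at 8 or more. It was higher at 0 than at 8 or more in 10 of 12 libraries, by a median of 10.7 points (-2.79 to 18.1). Cxcl9, an interferon target, did not split the cells, with 26.3% without it and 25.1% at 2 or more UMIs, the former higher in 5 of 12 libraries. Nor did Mrc1 or Folr2, of resident macrophages, with 25.7% with either and 26.7% with neither.

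**Figure D5:**
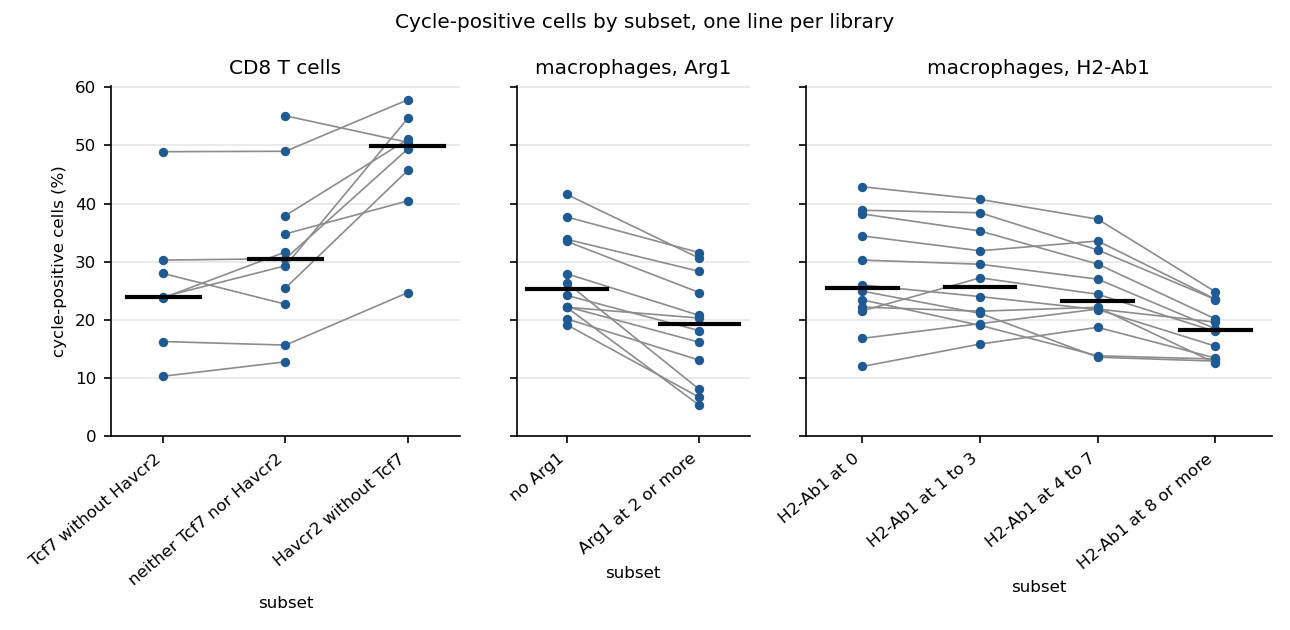
Each line is 1 library and joins its shares of cycle-positive cells (y axis, percent) in subsets of CD8 T cells by Tcf7 and Havcr2, and of macrophages by Arg1 and by H2-Ab1 UMIs, and the bar is the median of the libraries drawn. The line falls from no Arg1 to Arg1 in 12 of 12 libraries, and from 0 to 8 or more H2-Ab1 UMIs in 10 of 12.

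Barcodes that held macrophage and T cell transcripts together were set aside from both classes. Of 2538 thinned, 917 were cycle-positive (36.1%, 34.3 to 38.0%), above macrophages of the same library in 6 of 7 libraries with at least 50 of them, by a median of 6.99 points, and in 6 of 10 with at least 20, by 4.77 points. Between their cycle-positive and cycle-negative barcodes, 63 of 78 of the other cell cycle genes were at least 2-fold higher and 0 lower, against 2.05% of all genes higher and 0.143% lower (27 of the 42 at 10 CPM or more in the negative barcodes, against 0.872%). Whether these are 2 cells in 1 droplet was not tested. Of 108 keratin- or collagen-positive cells, which the CD45 selection should leave out, 40 were positive (37.0%, 27.9 to 46.9%), and Ptprc had a UMI in 18.9% of the 111 kept.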

How the data were processed

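scRNA-Seq libraries (10x Genomics 3' v3) of CD45+ cells were read into UMI counts per gene and barcode by the authors, who deposited 1 matrix of unnormalized counts for 12 libraries. The matrix header names Cell Ranger 3.0.2, while the submitters' processing notes name Cell Ranger 2.1.1, Seurat and mm10. Genes are 3' UMIs, so levels were compared between classes, and between genes only to choose the promoters printed.

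The limits of the paper were applied to each barcode (above 200 genes, under 5000 genes, mitochondrial share of UMIs up to 10%). Classes were gated on UMIs of fixed lineage markers. T cells needed 2 UMIs of Cd3d, Cd3e, Cd3g, Trac and Trbc2 and were split by Cd8a, Cd8b1, Cd4, Foxp3 and Trdc. NK cells and both kinds of conventional dendritic cell needed 2 UMIs of their markers, B cells, monocytes and plasmacytoid dendritic cells 3, and mature dendritic cells 5. Macrophages needed 4 C1qa, C1qb and C1qc UMIs per 1000 and the other classes fewer than 2 per 1000, and neutrophils needed 5 per 1000 of their markers. Barcodes that met the gates of more than 1 lineage were set aside, no doublet caller was run, and doublets of 2 like cells remain. Some mixed barcodes stayed in a class. Those with T cell markers that met the mature dendritic cell gate counted as mature dendritic cells, 9.47% of which had a Cd3e UMI. T cells with NK cell markers or Ly6c2 counted as T cells. With the stricter gate the pooled share was 6.27% in mature dendritic cells, against 11.2%, and 32.3% in CD8 T cells, against 38.2%. T cells with Lyz2 UMIs were kept, and where these UMIs come from was not tested.

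Cells were thinned to 1000 UMIs with a fixed seed. The thinning, the counts and the folds were tested on simulated data. UMIs of a class were summed before CPM were taken, and counts of 3 or fewer UMIs were set to 3 in a fold. Libraries are unassigned to groups and were not pooled as replicates, so no test was run, and shares carry exact Clopper-Pearson 95% intervals that cover counting error only. Depth bounds what is seen: a cell with 1000 UMIs and no member UMI may still divide. The members, the markers and the lists were chosen with earlier results of these data known. Every member is named with a value; of the other cell cycle genes, the 5 with the largest and the 3 with the smallest fold in CD8 T cells and macrophages, with Ezh2, Suz12 and Eed; and the promoters of up to 3 S and 3 G2/M members with the highest level in cycle-positive CD8 T cells. Of these, Dut and Pcna have no stretch of 100 bases without an exon and are not printed. The alternatives were another thinning depth or none, another cut, other member sets, a stricter gate, barcodes of several lineages kept, other filters, folds and floors, and each library left out. The scripts ran on pandas 2.3.3, matplotlib 3.10.9, pyarrow 21.0.0, scipy 1.17.1 and numpy 2.4.6 under Python 3.11.15.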

Additional observations from a re-analysis of the deposited data

Results flagged for a closer look

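The limit of 5000 genes per cell takes out barcodes rich in division transcripts, a signal in data that the comparisons above do not use. Of 2720 barcodes with 5000 or more genes and at most 10% mitochondrial UMIs, 1494 were cycle-positive after thinning (54.9%, exact interval 53.0 to 56.8%), against 23.7% of the 122696 kept cells with 1000 UMIs. Their median UMI count was 36751, against 4703. The limit took out 4.65% of the cycle-positive macrophages and 1.41% of the others, and 14% of the cycle-positive Ly6c2-positive macrophages and 2.09% of the others (230 barcodes, 67.0% from library 8). Library 8 gave 60.9% of the 1937 macrophages above the limit. The macrophage values of library 8 given earlier are of barcodes under the limit, and the part of this loss in them was not tested. Only 8 CD8 T cells and 10 type 1 dendritic cells lay above the limit. Whether these barcodes hold 1 large cell or several was not tested.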

How the results depend on the processing

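No source used here ties the library numbers to mice, so vehicle could not be compared with EZH2i or paired with it by replicate number. Classes were paired within libraries, with no test. The size of a share depends on how a cell is called, by construction. The median share of CD8 T cells (33.9%) was 60.7% at 2000 UMIs, 66.2% without thinning, 58.4% at a cut of 1 UMI, 21.3% at 3, 14.8% with Mki67 and Top2a alone and 20.9% without Dut, Pcna and the Mcm genes. That of type 1 dendritic cells (37.0%) was 21.9% at 500 UMIs, 77.2% without thinning, 55.7% at a cut of 1, 23.7% at 3, 45.8% with all 40 members, 17.0% with Mki67 and Top2a and 27.2% without Dut, Pcna and the Mcm genes. That of macrophages (22.9%) was 13.4% at 500 UMIs, 36.5% at 2000, 81.0% without thinning, 45.6% at a cut of 1, 14.7% at 3 and 10.1% with Mki67 and Top2a. Without Dut, Pcna and the Mcm genes (and Hmgb2 and Stmn1) the levels were 21.1 per 10000 in CD8 T cells, 18.1 in type 1 dendritic cells and 10.7 in macrophages; the level was 35.9 in CD8 T cells at 500 UMIs, and 27.2 in type 1 dendritic cells without the tenth of cells with most UMIs.

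Of 28 alternatives, 3 turned the order of CD8 T cells and macrophages (-16.6 points without thinning, -0.32 without Dut, Pcna and the Mcm genes, -6.97 with the stricter gate), and the cause was not tested. The stricter gate, which leaves 976 CD8 T cells, also turned that of CD8 and CD4 T cells (-0.44, 1 library). Monocytes and neutrophils turned with all 40 members (-9.23), without Dut, Pcna and the Mcm genes (-0.013) and with the stricter gate (-0.43). The orders of macrophages over both Ly6c2-positive classes, and of type 1 dendritic cells over macrophages and mature dendritic cells, turned in none of the 28. These orders are medians of differences within libraries. Without thinning, the median share of macrophages, each class taken over its own libraries, was above that of type 1 dendritic cells. With Mki67 and Top2a alone, CD8 T cells were 5.84 points above CD4 T cells, type 1 dendritic cells 11.1 above mature ones and macrophages 7.20 above monocytes, the last 11.1 at 500 UMIs and 43.6 without thinning. With Hmgb2 and Stmn1 the G2/M to S ratio was 2.32 in CD8 T cells, 2.33 in macrophages and 3.21 in type 1 dendritic cells.

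Counts of members moved with the fold. At 1.5-fold and 3-fold they were 23 and 1 of 39 tested for CD8 T cells over macrophages (26.5 and 6.87% of all genes), 35 and 1 of 38 over CD4 T cells (5.63 and 0.45%), 21 and 3 of 37 for Foxp3-positive over CD4 T cells (14.2 and 1.20%), 26 and 0 of 38 for NK cells under CD8 T cells (12.4 and 1.79%), 26 and 0 of 37 for macrophages over Ly6c2-positive macrophages (4.80 and 0.249%), and 11 and 0 of 38 for type 1 dendritic cells over macrophages (13.1 and 4.10%); type 1 over mature dendritic cells was 19 of 36 at 3-fold (4.34%). A floor of 20 CPM, which tests fewer genes, left 16 of 17 for macrophages over neutrophils (37.1% of all genes) and 19 of 21 for monocytes under macrophages (5.01%). Without mitochondrial and ribosomal protein genes 21 of 40 were higher in CD8 T cells (19.6% of all genes) and 4 of 38 in type 1 dendritic cells (8.52%) than in macrophages; the median log2 fold of all genes between CD8 T cells and macrophages was then 0.31, against 0.09.

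Without each library in turn, the median share was 33.9 to 34.0% in CD8 T cells, 36.1 to 37.9% in type 1 dendritic cells and 22.6 to 23.1% in macrophages. CD8 T cells stayed 4.53 to 9.83 points above macrophages and 17.4 to 20.05 above CD4 T cells, type 1 dendritic cells 5.67 to 9.58 above macrophages and 21.6 to 26.9 above mature ones, and macrophages 17.5 to 19.2 above monocytes. The range over CD4 T cells comes from the 6 libraries with at least 50 cells of each, with a median of 18.7 points. The comparison given earlier used 9 libraries with at least 20. Levels were 45.5 to 48.2 in CD8 T cells, 37.2 to 37.6 in type 1 dendritic cells and 20.6 to 20.8 in macrophages, and the ratio 1.12 to 1.24, 1.66 and 1.26 to 1.29. Type 1 dendritic cells were read here in libraries of at least 20 cells.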

Other observations

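A total of 16102 barcodes had no class, of which 13647 could be thinned, and 15.3% of these were cycle-positive (14.7 to 15.9%); over the 12 libraries the share was 4.22 to 22.9%, with a median of 14.6%. The level of the members in these barcodes was 14.5 per 10000 UMIs. Macrophage barcodes with a second lineage other than T cells, or with only 2 T cell UMIs, were cycle-positive in 24.8% of 2547 cells. Other barcodes with more than 1 lineage were so in 21.4% of 555.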
